A study of Schmidtea mediterranea with 48 samples.

Results

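Wound faces of planarian tail fragments after myoD RNAi were compared at 6 hours post amputation (hpa) and at 0 hpa, the moment of the cut. The libraries were found by their group label: 3 libraries of myoD RNAi wounds at 6 hpa and 3 at 0 hpa, 6 of the 48 libraries in the series. The animals were Schmidtea mediterranea of the asexual strain CIW4. They were fed double-stranded RNA (dsRNA) of myoD, 10 times over 5 weeks per the sample labels; the design text of the series gives 8 feedings. Each library held poly(A) RNA of 5 wounds. The reference for the RNAi was a set of control wounds at the same times, 3 libraries at 6 hpa and 3 at 0 hpa, whose animals were fed dsRNA of unc-22, a Caenorhabditis elegans gene, on the same schedule. A separate experiment with 6 feedings over 3 weeks had fst (follistatin) RNAi wounds and its own unc-22 controls, again 3 libraries at 6 hpa and 3 at 0 hpa each.

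When a planarian is cut, cells near the wound switch on a set of transcripts within hours, before missing tissue is regrown from neoblasts, the dividing stem cells. Planarian muscle does more than contract: its cells express many of the secreted signals that carry positional information, and wounding changes which of these signals muscle expresses. MyoD is a transcription factor known across animals for its role in muscle cells, and in planarians myoD is known for its role in longitudinal body-wall muscle fibres. Follistatin is a secreted inhibitor of Activin-type signals, and its planarian gene is induced in muscle at wounds. The comparison of 6 with 0 hpa asks which transcripts change in the first hours after a cut when myoD is inhibited.

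The files give identifiers of a transcript assembly and no gene names, so the level of myoD itself could not be read, no muscle, neoblast or other cell type marker could be checked, and the RNAi and tissue labels stand as given. Total counts ran from 15531993 to 19583896 in the 6 libraries. In all 48 libraries they ran from 7169717 to 22065480. The sources do not say that replicates were taken from different animals, and p-values here cover only the variation among these libraries, part or all of which may be technical. The most abundant transcript took 6.99, 6.86 and 7.29% of the counts at 6 hpa, against 9.45, 8.59 and 8.49% at 0 hpa. In a principal component analysis of the 12 libraries of the 10-feeding experiment at 6 and 0 hpa, the first component carried 35.3% of the variance. Its scores were 22.5, 19.8 and 15.6 in myoD RNAi libraries at 6 hpa, against -24.3, -21.6 and -25.8 in those at 0 hpa. In controls they were 34, 19.1 and 21.5 at 6 hpa, against -17.8, -20.2 and -22.7 at 0 hpa. Time separated all 12 libraries on this component, and the scores of myoD RNAi and control libraries overlapped at each time.

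After myoD RNAi, 1726 of the 17527 transcripts tested were higher at 6 hpa than at 0 hpa (9.85%) and 1248 were lower (7.12%), at an adjusted p under 0.05 in edgeR's quasi-likelihood test with Benjamini-Hochberg adjustment. Most of these changes were small: 71.4% of the 2974 called transcripts (17%) moved by less than 1.5-fold. The median log2 fold change was 0.43 among the transcripts that rose, -0.375 among those that fell and -0.01 over all transcripts tested. Large changes were mostly rises. At least 2-fold, 290 transcripts rose (1.65% of those tested) and 51 fell (0.291%), and at least 4-fold, 48 rose and 3 fell. As a share of the calls, changes of at least 2-fold made up 16.8% of the rises and 4.09% of the falls. The called log2 fold changes ran from -2.95 to 7.03, and the smallest adjusted p was 2.87e-17. In a test against a minimum change of 1.5-fold, 137 rises and 14 falls were left. Leaving out any 1 of the 6 libraries lowered the total of 2974, to between 1963 and 2390. The lowest total came without 0 hpa replicate 1, with 1217 higher and 746 lower. Without 6 hpa replicate 1 the number lower was 820. With only the 6 libraries in the fit, 2241 were higher and 1894 lower.

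**Figure D1:**
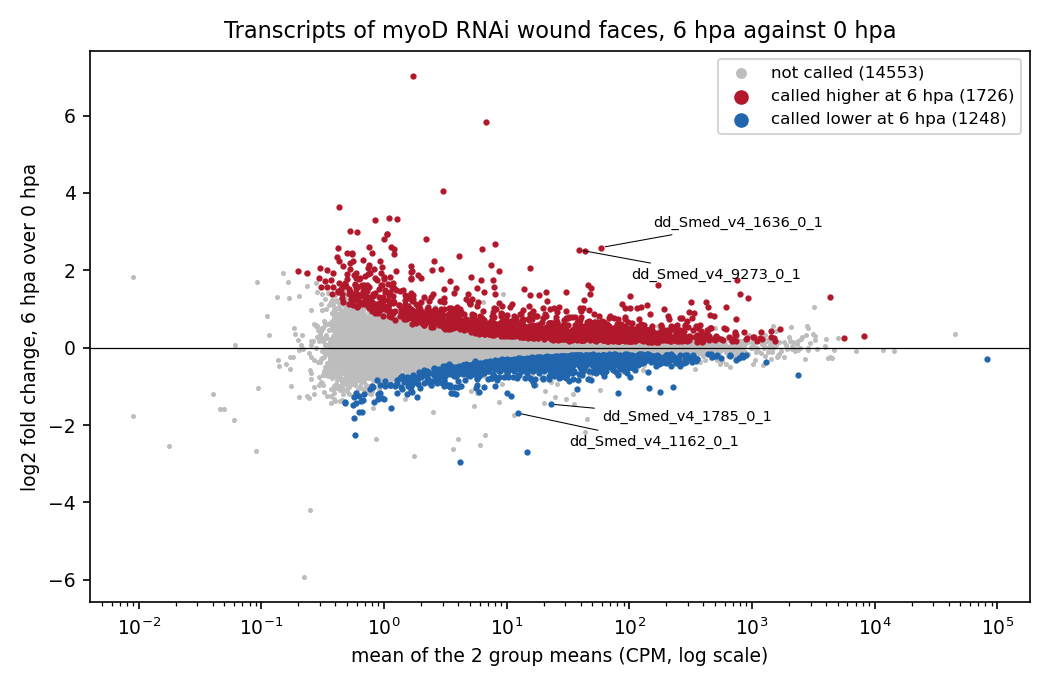
Log2 fold change at 6 hpa over 0 hpa after myoD RNAi (vertical axis) against mean level in CPM on a log scale (horizontal axis), 1 point for each of the 17527 transcripts tested; red points are the 1726 called higher, blue points the 1248 called lower, and the 4 named transcripts are labelled. The large rises lie mostly at low levels, and few falls reach 2-fold.

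The 3 libraries at 6 hpa and the 3 at 0 hpa did not overlap for 1695 of the 1726 transcripts called higher and for 1225 of the 1248 called lower. Over all transcripts tested, 3327 (19%) had every 6 hpa library above every 0 hpa library, and 3349 (19.1%) had every one below. An adjusted p under 0.05 held without each of the 6 libraries in turn for 929 of the rises and 516 of the falls. A further 85 transcripts were at least 2-fold higher and 74 at least 2-fold lower without passing the test, and 130 of these 159 had a mean under 1 CPM (the count of a transcript relative to the total of its library, after TMM scaling). As a share of all counts, the 1726 transcripts that rose took 14.9, 14.4 and 15.2% of the libraries at 6 hpa, against 11.2, 11.4 and 11.4% at 0 hpa. The 1248 that fell took 12.3, 12 and 12.8% at 6 hpa, against 16.6, 15.3 and 15.1% at 0 hpa. The 290 transcripts that rose at least 2-fold held 1.45, 1.39 and 1.56% of the counts at 6 hpa, against 0.595, 0.595 and 0.608% at 0 hpa. The 51 that fell at least 2-fold held 0.0512, 0.0471 and 0.0474% at 6 hpa, against 0.114, 0.111 and 0.0999% at 0 hpa. These lists were chosen by this contrast, so their shares describe its size and test nothing. The number of transcripts with at least 1 count was 23352, 23444 and 23680 in the libraries at 6 hpa, against 23406, 23361 and 23089 in those at 0 hpa, with overlap between the groups. Tissue was measured in bulk, so a change in the number of cells of a type and a change in RNA per cell cannot be told apart.

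Among transcripts with a mean of at least 10 CPM over the 6 libraries, groups that did not overlap and a call without each library in turn, 666 rises and 419 falls qualified to be named, and the largest of each are described here by identifier only, since no gene name is paired with them. The largest rise was that of dd_Smed_v4_1636_0_1, with 103, 114 and 85.6 CPM in the libraries at 6 hpa, against 17.5, 18.5 and 14.3 CPM at 0 hpa. Every 6 hpa library was above every 0 hpa library, as the naming rule required. Its mean was 101 ± 14.2 CPM at 6 hpa and 16.8 ± 2.19 CPM at 0 hpa (SD, n = 3 each), or 2.59 higher on the log2 scale (SE 0.179, adjusted p = 1.65e-08, edgeR). The transcript stayed raised at the next time and was back near its starting level at the last: over 0, 6, 24 and 48 hpa its means were 16.8, 101, 64.7 and 17.6 CPM after myoD RNAi. In controls of the same experiment they were 21.8, 84.2, 66 and 13.6 CPM.

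The second largest rise under the naming rule was that of dd_Smed_v4_9273_0_1. It had 69, 67.5 and 61 CPM at 6 hpa, against 8.11, 13.9 and 12.1 CPM at 0 hpa. All 6 hpa libraries were again above the 0 hpa libraries, as the rule required, and the log2 fold change was 2.53 (SE 0.238, adjusted p = 9.75e-07, edgeR). Over 0, 6, 24 and 48 hpa its means were 11.4, 65.8, 20.2 and 8.52 CPM after myoD RNAi, against 10.5, 85.8, 51.8 and 33.7 CPM in controls. At the later times its level was lower after myoD RNAi than in controls in every library, with 20.2 ± 5.24 against 51.8 ± 5.13 CPM in controls at 24 hpa and 8.52 ± 2.84 against 33.7 ± 1.99 CPM in controls at 48 hpa (SD, n = 3 each). These later differences are given as levels and were not tested here.

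The largest fall under the naming rule was that of dd_Smed_v4_1162_0_1. It had 6.19, 5.76 and 5.46 CPM at 6 hpa, against 18.2, 20.2 and 17.6 CPM at 0 hpa. The spread within each group was small beside the gap between them, and the log2 fold change was -1.69 (SE 0.156, adjusted p = 8.35e-09, edgeR). The level was higher again at later times, with means of 18.7, 5.8, 10.5 and 15.5 CPM over 0, 6, 24 and 48 hpa after myoD RNAi, against 16.5, 4.32, 12.4 and 12.1 CPM in controls. The second largest fall was that of dd_Smed_v4_1785_0_1, with 14.5, 13.1 and 9.07 CPM at 6 hpa, against 33.6, 32.9 and 33.7 CPM at 0 hpa. Its log2 fold change was -1.46 (SE 0.182, adjusted p = 1.31e-05, edgeR). It did not return within the times sampled: its means were 13.7 ± 2.94 CPM at 24 hpa and 19.1 ± 1.27 CPM at 48 hpa after myoD RNAi, against 13.5 ± 1.17 and 10.2 ± 3.21 CPM in controls (SD, n = 3 each).

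The share of transcripts called varied with their level. Transcripts were divided by their mean CPM in the control libraries at 0 hpa, which the contrast does not use. Of 2395 transcripts under 1 CPM, 210 rose (8.77%) and 22 fell (0.919%), and 190 of these rises were at least 2-fold. Of 5857 transcripts of 1 to 10 CPM, 414 rose (7.07%) and 283 fell (4.83%), with 66 and 24 at least 2-fold. Of 7580 transcripts of 10 to 100 CPM, 832 rose (11%) and 785 fell (10.4%), but only 25 rises and 6 falls were at least 2-fold. Of 1695 transcripts of 100 CPM or more, 270 rose (15.9%) and 158 fell (9.32%), with 9 and 4 at least 2-fold. Among the transcripts tested, large rises were mostly those of scarce transcripts, while abundant transcripts were called more often and with smaller changes. The filter on low counts used all libraries of the experiment, so a transcript scarce at 0 hpa could be kept for its level at 6 hpa or later. A low value at 0 hpa also leaves little room to fall. Both favour rises under 1 CPM, so the split in that class is a description and was not itself tested. The numbers lower were the less stable ones. Without each of the 6 libraries in turn they were 11 to 17 under 1 CPM and 148 to 213 at 1 to 10 CPM. They were 480 to 613 at 10 to 100 CPM and 106 to 127 at 100 CPM or more. The lowest of these came without 6 hpa replicate 2 in the first class and without 0 hpa replicate 1 in the other classes. DESeq2 called 138 higher and 10 lower under 1 CPM, and the stricter filter left 14 lower there. With only the 6 libraries in the fit, 312 were lower at 100 CPM or more. Under 1 CPM the median log2 fold change of all transcripts was 0.14 after myoD RNAi, -0.121 after fst RNAi and -0.193 in the 6-feeding controls. The 10-feeding controls are left out here, since their own 0 hpa libraries set the classes and a class of low values at 0 hpa favours a rise in them.

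No transcript was called for a difference between the 0 to 6 hpa response after myoD RNAi and that of the controls: 0 of 17527 passed an adjusted p of 0.05 for the difference of responses (0%) in edgeR, where the smallest adjusted p was 0.452. At an unadjusted p under 0.05 there were 827, of which 505 were more positive and 322 more negative after myoD RNAi. DESeq2 also called 0, with 585 at an unadjusted p under 0.05. Without 0 hpa replicate 2 of myoD RNAi edgeR called 1 transcript, and without 0 hpa replicate 3 it called 1 other. The absence of a call does not show that the responses were alike. The 95% interval of the difference reached a median of 0.357 to either side on the log2 scale, and 13726 transcripts (78.3%) had the whole interval within 1 log2 unit of 0, that is, a difference of under 2-fold either way. This held for 1452 of the 1726 rises and 1146 of the 1248 falls, but for only 80 of the 290 rises and 17 of the 51 falls of at least 2-fold. By level, the median reach of the interval was 1.16 under 1 CPM and 0.536 at 1 to 10 CPM. It was 0.25 at 10 to 100 CPM and 0.19 at 100 CPM or more. Under 1 CPM most intervals were thus too wide to exclude a 2-fold difference at this depth and replication. The intervals are not adjusted for the number of transcripts, so at every level a call asks for more than an interval that excludes 0.

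Most transcripts called after myoD RNAi were called in the same direction in control wounds, which share no library with the contrast that chose them. Of the 1726 that rose, 1159 were also called higher in controls (67.1%, against 9.92% of all transcripts tested) and 1 was called lower. Of the 1248 that fell, 785 were called lower in controls (62.9%, against 9.97% of all) and 0 higher. The median log2 fold changes of these lists in controls were 0.376 for the rises and -0.323 for the falls. Leaving out in turn each of the 12 libraries of this experiment at 6 and 0 hpa gave 895 to 1041 and 531 to 699 shared calls. Choosing on one side favours that side, so the lists were also drawn the other way. Of the 1738 transcripts that rose in controls, 1159 rose after myoD RNAi (66.7%), with a median of 0.36 after myoD RNAi and 0.443 in controls. Of the 1748 that fell in controls, 785 fell after myoD RNAi (44.9%) and 1 rose, with a median of -0.233 after myoD RNAi and -0.351 in controls. Controls had the larger number of falls, 1748 (9.97%) against 1248 (7.12%) after myoD RNAi, but their number without control 6 hpa replicate 1 was 1121 and no transcript passed the test of the difference. Across the 17527 transcripts the log2 fold changes of myoD RNAi and controls had a Pearson r of 0.658 and a Spearman rho of 0.652, a description over transcripts, which are not independent replicates and share the scaling and dispersion estimates of 1 fit.

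Among changes of at least 2-fold most rises were also called in controls, but fewer than 1 in 2 falls were. The direction was shared by nearly all: 282 of the 290 rises had a positive and 49 of the 51 falls a negative log2 fold change in controls. Of the 290 rises after myoD RNAi, 188 were called higher in controls (64.8%, against 9.92% of all transcripts tested) and 0 lower. Their medians were 1.39 after myoD RNAi and 1.12 in controls. Of the 51 falls, 23 were called lower (45.1%, against 9.97% of all), 28 were not called and 0 were called higher. Their medians were -1.21 after myoD RNAi and -0.794 in controls. In reverse, 274 control rises were at least 2-fold (1.56% of those tested). Of these, 189 were called higher after myoD RNAi (69%, against 9.85% of all). Their medians were 1.15 after myoD RNAi and 1.34 in controls. Of the 67 control falls of at least 2-fold (0.382%), 32 were called lower (47.8%, against 7.12% of all). Their medians were -0.752 after myoD RNAi and -1.24 in controls. Each list was thus larger in size on the side that chose it. The 4 named transcripts changed in the same direction in controls, with log2 fold changes after myoD RNAi and in controls of 2.59 and 1.95 for dd_Smed_v4_1636_0_1, 2.53 and 3.05 for dd_Smed_v4_9273_0_1, -1.69 and -1.93 for dd_Smed_v4_1162_0_1, and -1.46 and -1.38 for dd_Smed_v4_1785_0_1. For dd_Smed_v4_1636_0_1 the difference of responses was 0.639 on the log2 scale (95% interval 0.116 to 1.16, adjusted p = 0.999, edgeR). For dd_Smed_v4_9273_0_1 it was -0.514 (interval -1.24 to 0.208), for dd_Smed_v4_1162_0_1 it was 0.237 (interval -0.243 to 0.717) and for dd_Smed_v4_1785_0_1 it was -0.075 (interval -0.623 to 0.473), each with an adjusted p of 0.999 in edgeR.

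**Figure D2:**
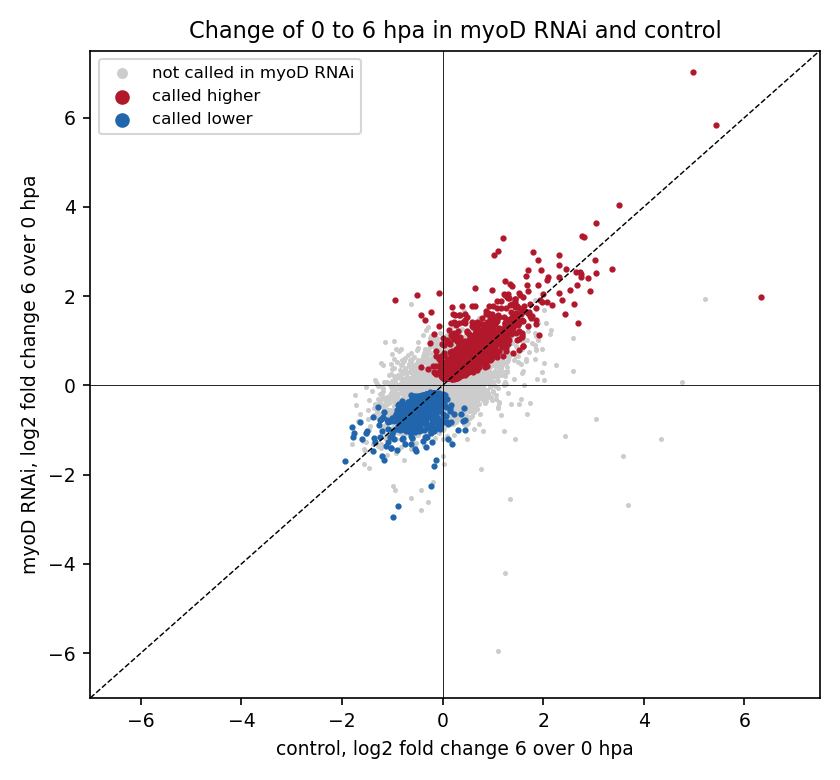
Log2 fold change at 6 hpa against 0 hpa after myoD RNAi (vertical axis) and in controls of the same experiment (horizontal axis), 1 point per transcript, with transcripts called after myoD RNAi coloured. Most coloured points have the same sign on both axes, and 0 of 17527 passed the test of a difference.

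The transcript with the smallest p for the difference of responses, singled out after its values were seen, was dd_Smed_v4_24180_0_1. After myoD RNAi it had 1.62, 1.38 and 0.864 CPM at 6 hpa (24, 24 and 16 counts), against 2.05, 1.06 and 2.02 CPM at 0 hpa (38, 20 and 33 counts), a log2 fold change of -0.42 that was not called (SE 0.265, adjusted p = 0.297, edgeR). In controls it had 3.22, 2.92 and 2.64 CPM at 6 hpa, against 1.14, 1.2 and 1.08 CPM at 0 hpa, a log2 fold change of 1.36 (adjusted p = 0.000227). The control groups did not overlap, while after myoD RNAi the groups did. The difference of responses was -1.78 on the log2 scale (SE 0.369, 95% interval -2.53 to -1.03) with an adjusted p of 0.452, so it did not pass over all transcripts. Without myoD RNAi 0 hpa replicate 2 the adjusted p was 0.0458 (difference -2.04), and without each of the other libraries of the contrast in turn it ranged from 0.279 to 1. At 24 and 48 hpa its means were 2.44 and 1.26 CPM after myoD RNAi, against 7 and 5.58 CPM in controls.

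**Figure D3:**
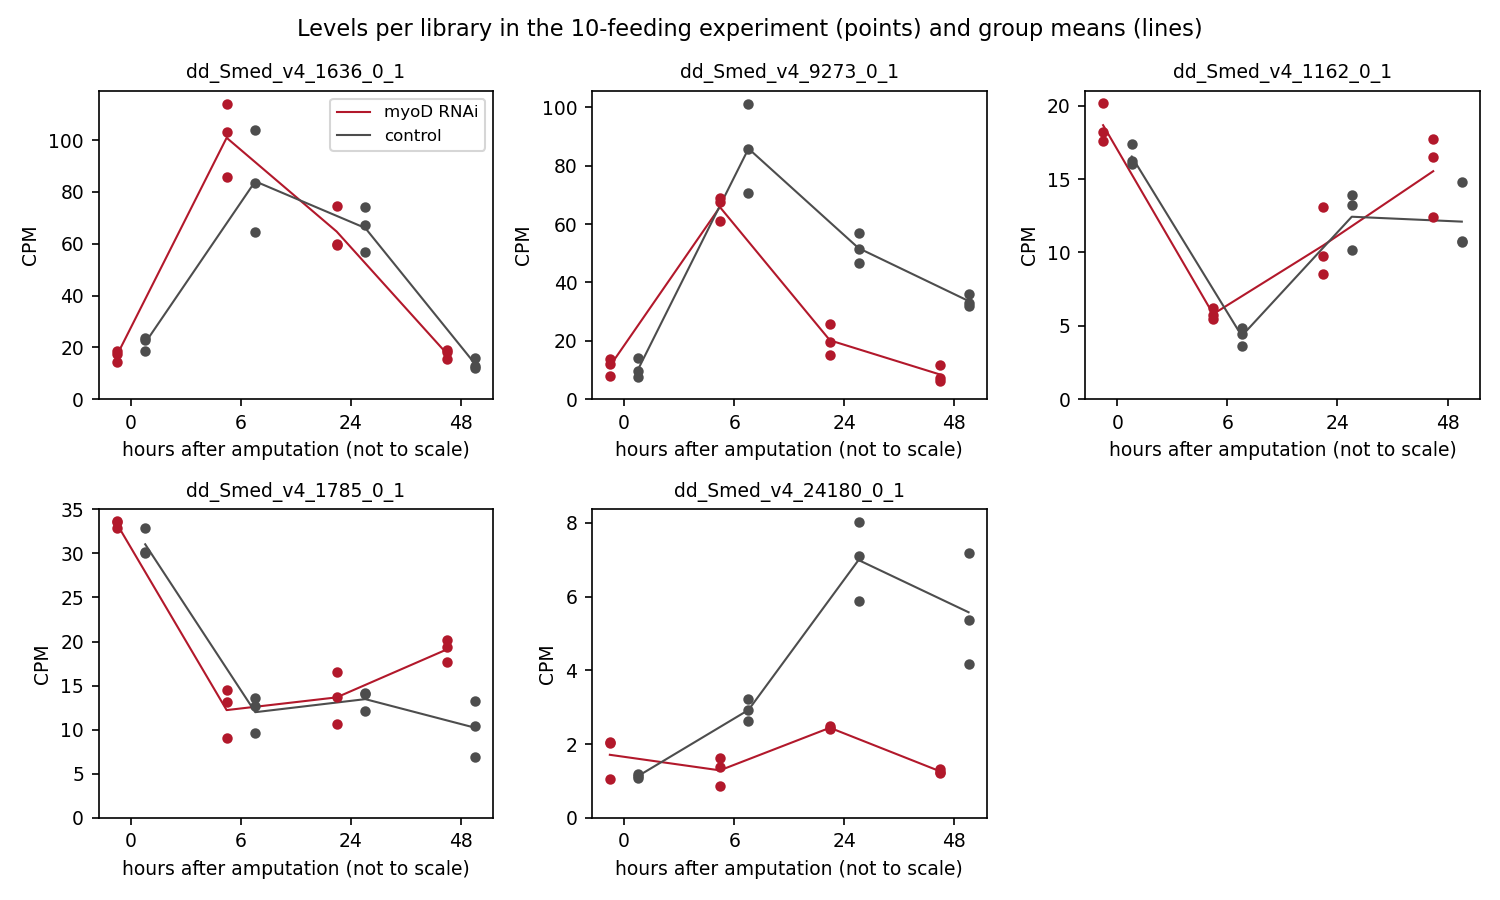
Level in CPM in each library of the 10-feeding experiment at 0, 6, 24 and 48 hpa (axis not to scale). Shown are the 2 largest rises and the 2 largest falls under the naming rule, and dd_Smed_v4_24180_0_1. Libraries of myoD RNAi are in red, left of control in grey. Points are libraries and lines join group means. In the first 4 panels the 6 hpa libraries stand apart from the 0 hpa libraries in both groups, and in the last panel this is so in controls and not after myoD RNAi. After myoD RNAi the transcripts of the first 4 panels were chosen for this separation.

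The rises of the first 6 hours mostly declined later. For the 290 transcripts that rose at least 2-fold, the median change from 0 hpa in log2(CPM + 0.5) was 0.949 at 6 hpa, 0.545 at 24 hpa and 0.0851 at 48 hpa after myoD RNAi, against 0.775, 0.48 and -0.00725 in controls. The highest mean of the 4 times was at 6 hpa for 260 of them after myoD RNAi, at 24 hpa for 24 and at 48 hpa for 6. In controls it was at 6 hpa for 206, at 24 hpa for 60, at 48 hpa for 21 and at 0 hpa for 3. For the 51 transcripts that fell at least 2-fold, the median change was -0.88, -0.43 and -0.276 at 6, 24 and 48 hpa after myoD RNAi, against -0.553, -0.382 and -0.318 in controls. Their lowest mean was at 6 hpa for 42 after myoD RNAi and for 29 in controls. The members were chosen for their change at 6 hpa after myoD RNAi, which favours that time and that group here. The later times share the 0 hpa libraries with 6 hpa, so no test was made.

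**Figure D4:**
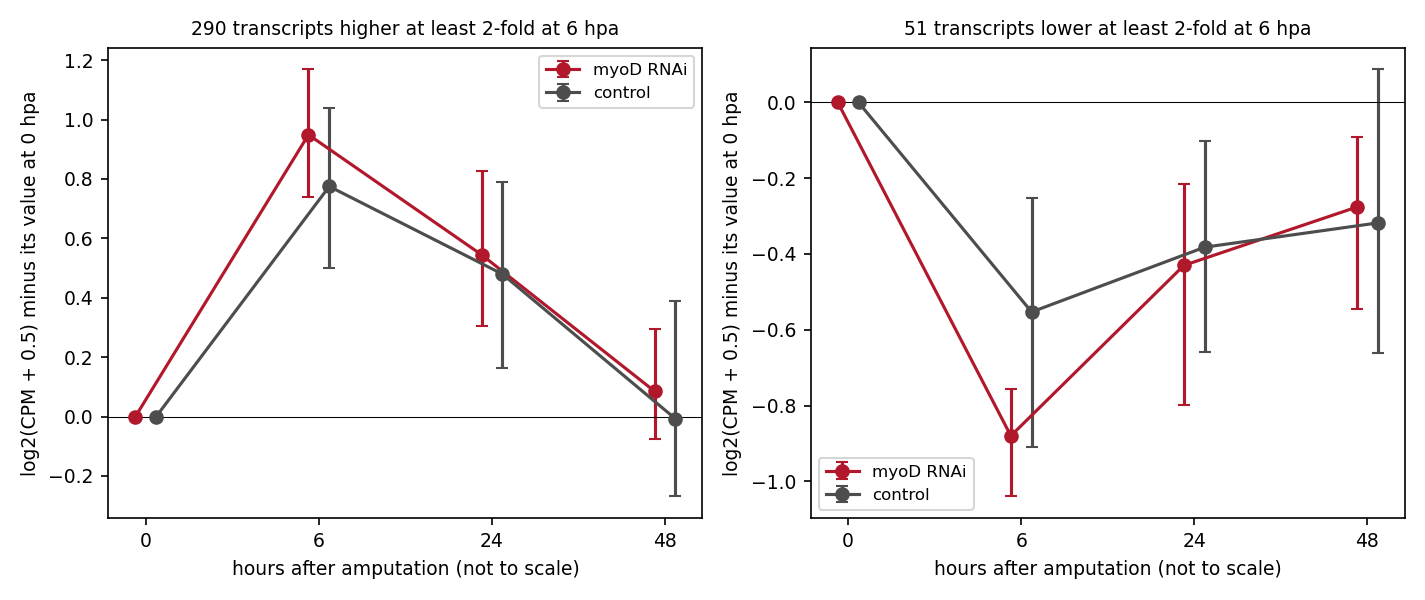
Median change from 0 hpa in log2(CPM + 0.5) at 0, 6, 24 and 48 hpa (axis not to scale) for the 290 transcripts that rose at least 2-fold (left) and the 51 that fell at least 2-fold (right) at 6 hpa after myoD RNAi; myoD RNAi is red, control is grey, and error bars span the quartiles over transcripts. After myoD RNAi the median of the rises was 0.949 at 6 hpa and 0.0851 at 48 hpa.

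The experiment with 6 feedings had no part in choosing these transcripts. There, 529 of the 1676 rises that could be tested were called higher after fst RNAi (31.6%, against 4.88% of all 17815 tested) and 47 lower (2.8%, against 2.85%). In the unc-22 controls of that experiment, 396 were called higher (23.6%, against 3.78% of all) and 108 lower (6.44%, against 2.81%). The medians of the rises were 0.25 after fst RNAi and 0.171 in the 6-feeding controls. Of 1246 falls tested there, 228 were called lower after fst RNAi (18.3%, against 2.85% of all) and 1 higher, and 146 were called lower in the 6-feeding controls (11.7%, against 2.81%) and 2 higher. The medians of the falls were -0.211 after fst RNAi and -0.146 in the 6-feeding controls. With only the compared groups in each fit, which also redraws the lists as 2241 rises and 1894 falls, 897 rises were called higher and 136 lower after fst RNAi, and 514 falls lower. These counts also moved strongly with single libraries. After fst RNAi the rises called higher were 338 without 6 hpa replicate 3, and those called lower were 16, 14, 22, 24 and 18 without 0 hpa replicate 1, 0 hpa replicate 2, 6 hpa replicate 1, 6 hpa replicate 2 and 6 hpa replicate 3. The falls called lower after fst RNAi were 115 without 6 hpa replicate 3, 138 to 144 without each 0 hpa replicate and 143 without 6 hpa replicate 2. Without 6-feeding control 6 hpa replicate 3, 219 of the rises were called higher and 14 lower in those controls, and 50 of the falls lower. Without 0 hpa replicate 2 of these controls the same counts were 239, 40 and 69, and without 0 hpa replicate 3 they were 252, 37 and 74. A library of fst RNAi at 48 hpa, replicate 1, is labelled as having much human contamination and enters the shared spread. Without it, 706 rises were higher and 80 lower after fst RNAi, 554 were higher and 172 lower in the 6-feeding controls, and 364 and 256 falls were lower in those groups.

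A core of transcripts changed in all 4 groups. It held 319 transcripts that were called higher at 6 hpa after myoD RNAi, in its controls, in the 6-feeding controls and after fst RNAi, 18.5% of the myoD RNAi rises. Their median log2 fold changes were 0.534 after myoD RNAi, 0.552 in its controls, 0.706 after fst RNAi and 0.615 in the 6-feeding controls, and 49 of them rose at least 2-fold after myoD RNAi. Another 96 were called lower in all 4 groups, 7.69% of the falls, with medians of -0.526, -0.528, -0.533 and -0.492 in the same order. In the 6-feeding controls alone, 3.78% of all transcripts tested were called higher and 2.81% lower. The share of all transcripts called in the other groups together was not counted, so no matching background stands beside the shares of 18.5 and 7.69%. These counts were 194 and 38 without 6-feeding control 6 hpa replicate 3, 212 and 47 without 0 hpa replicate 2 of those controls, and 438 and 171 without the contaminated library; without 0 hpa replicate 3 of those controls the number lower was 50. Across the 17288 transcripts tested in both experiments, the log2 fold changes after myoD RNAi had a Pearson r of 0.34 with those after fst RNAi (Spearman rho 0.355) and 0.201 with those of the 6-feeding controls (rho 0.211), given as descriptions over transcripts.

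In the 6-feeding experiment the large rises had medians that went with their level. Among the rises of at least 2-fold under 1 CPM, 140 were tested there. The 10-feeding controls set the classes by their own 0 hpa libraries, which favours rises in them under 1 CPM. The filter on low counts also favours rises in the 10-feeding libraries in this class. The median of the rises under 1 CPM was 1.5 after myoD RNAi and 1.12 in its controls (190 rises). It was 0.0167 after fst RNAi and -0.361 in the 6-feeding controls (140 rises). Of the 140, 20 were called higher and 5 lower after fst RNAi, where 4.88 and 2.85% of all transcripts tested were. In the 6-feeding controls 10 of the 140 were called higher and 9 lower, where 3.78 and 2.81% of all were. For the 66 such rises of 1 to 10 CPM the medians were 1.24, 1.07, 0.21 and -0.03 in the same 4 groups. For the 25 of 10 to 100 CPM they were 1.21, 1.19, 1.26 and 1.28, and for the 9 of 100 CPM or more 1.19, 1.27, 1.69 and 1.51. From 10 CPM up the medians of the 4 groups thus lay between 1.19 and 1.69. Of the 25 and the 9, 24 and 9 were called higher in controls of the same experiment, where 9.92% of all were. After fst RNAi 17 and 8 were called higher and 0 lower. In the 6-feeding controls 17 and 7 were called higher and 2 and 0 lower. Of the 66 of 1 to 10 CPM, 20 were higher and 10 lower after fst RNAi, against 18 and 12 in the 6-feeding controls. Replicates varied less in the experiment of myoD RNAi (biological coefficient of variation 8.34%) than in that of fst RNAi (13%, contaminated library included). Without that library the calls went from 1376 to 2329 after fst RNAi and from 1174 to 2132 in the 6-feeding controls. The coefficient without it is not given here. Fewer calls in the 6-feeding experiment thus do not by themselves show a smaller change. Number of feedings, experiment and RNAi differ together between these sets of libraries and cannot be told apart.

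**Figure D5:**
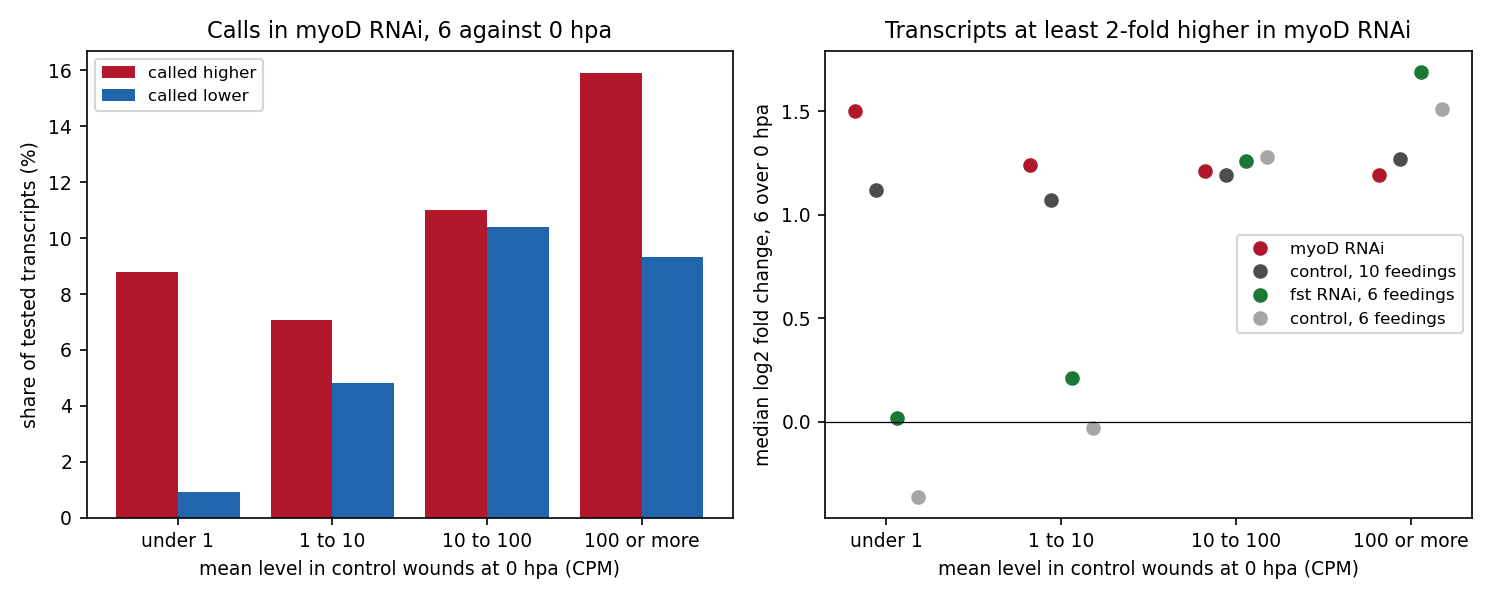
Left, percent of transcripts called higher (red) or lower (blue) at 6 hpa against 0 hpa after myoD RNAi, by class of mean level in control wounds at 0 hpa; right, median log2 fold change in 4 groups of the transcripts that rose at least 2-fold after myoD RNAi, in the same classes. Falls were 0.919% of the class under 1 CPM, where the filter on low counts and the low starting level favour rises. From 10 CPM up the medians of the 4 groups lay between 1.19 and 1.69.

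The named rises did not both go in the direction of their class medians in the other experiment. dd_Smed_v4_9273_0_1 also rose in the other experiment, with log2 fold changes of 3.67 after fst RNAi (adjusted p = 7.66e-09) and 3.37 in its controls (adjusted p = 2.98e-08, edgeR). The falls were also seen there: dd_Smed_v4_1162_0_1 had log2 fold changes of -0.946 after fst RNAi (adjusted p = 0.000269) and -0.705 in its controls (adjusted p = 0.00647), and dd_Smed_v4_1785_0_1 had -1.02 (adjusted p = 0.000777) and -0.7 (adjusted p = 0.0229, edgeR). The larger named rise was not called there. Its 21.8 CPM in 10-feeding control wounds at 0 hpa put it in the class of 10 to 100 CPM. The medians of that class's rises of at least 2-fold were 1.26 after fst RNAi and 1.28 in the 6-feeding controls. dd_Smed_v4_1636_0_1 had 15.1, 8.72 and 12.3 CPM at 6 hpa after fst RNAi, against 19.1, 19.7 and 15.9 CPM at 0 hpa, and 10.6, 13 and 7.23 CPM at 6 hpa in the 6-feeding controls, against 20.8, 24.7 and 33.6 CPM at 0 hpa. All its libraries at 6 hpa were below those at 0 hpa in both groups, with log2 fold changes of -0.594 (adjusted p = 0.573) and -1.38 (adjusted p = 0.123, edgeR) that were not called. In a joint fit of all 48 libraries, added after the values were seen, 324 of 18230 transcripts differed from fst RNAi in their response (1.78%) and 686 from the 6-feeding controls (3.76%). In that fit the response of dd_Smed_v4_1636_0_1 after myoD RNAi exceeded that after fst RNAi by 3.18 (adjusted p = 0.000325) and that of the 6-feeding controls by 3.97 (adjusted p = 9.36e-06, edgeR) on the log2 scale. The transcript was chosen as the largest rise under the naming rule in the same myoD RNAi libraries, which favours an excess in these tests.

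The authors' deposited table for the same comparison gave 1132 transcripts higher and 687 lower at an adjusted p under 0.05. Of these, 1109 and 681 were also called here in the same direction, 98% and 99.1% of the calls in the authors' deposited table, and 0 were called in opposite directions. The shared calls were 64.3% of the rises and 54.6% of the falls called here. Transcripts that share a component number with another transcript of the assembly, whose reads may have been split or joined in counting, numbered 288 among those tested, and 44 of them were called higher and 22 lower, where 9.85 and 7.12% of all transcripts tested were.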

How the data were processed

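Poly(A) RNA of wound faces was sequenced in 48 libraries, 16 groups of 3, and the 6 libraries of myoD RNAi at 6 and 0 hpa were compared. The labels' protocols give TriZOL for extraction and Kapa Stranded mRNA-Seq for the libraries. Tools given in the submitters' processing notes are Bowtie 1.1.1, cutadapt 1.8, DESeq, SAMtools and CASAVA; the counter and its use of strand are not given in the sources used here. Raw counts of 26563 transcripts (25681 with any in the 6 libraries) were deposited by the authors, and 0 columns of that table were left unmapped. In the authors' deposited comparison tables, group means are a normalised signal, fold changes are a ratio of the means with its log2, and the p-value columns hold raw and adjusted values. Descriptions of the 6-feeding libraries point to comparison tables of the other RNAi group, so groups were taken from titles and characteristics.

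The tests used edgeR 4.0.16 (limma 3.58.1) in R 4.3.3: filterByExpr, TMM scaling, robust quasi-likelihood F-tests, 24 libraries and 8 groups per experiment. The threshold for a call was 0.05 after Benjamini-Hochberg adjustment across every transcript of a fit. The response difference is (myoD RNAi 6 minus 0 hpa) minus (control 6 minus 0 hpa). Differences from the 6-feeding responses came from 1 fit of 48 libraries, chosen after seeing the data. DESeq2 1.42.0, RLE size factors, other filters and fits of the compared groups alone were alternatives. So were fits without each library of the compared groups or without the contaminated library. The fits were tested on simulated data with known changes. Replicates of a group differed by more than sampling noise (chi-square per degree of freedom 5.61 to 20.5), so each library counted once. Replicate numbers were not used to pair the samples. Same-numbered libraries had correlations of 0.0507, 0.037 and 0.0308 between their deviations, and libraries of different number -0.0854 to 0.0489. With 3 libraries a group these values cannot exclude a pairing.

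Named transcripts were the 2 largest rises and 2 largest falls among calls that averaged 10 CPM or more over the 6 libraries, had no overlap and kept the call without each library in turn; dd_Smed_v4_24180_0_1 was chosen after its values were seen. Gene and marker lists could not be used, since 0 identifiers carry a name, and no sequence was read. The members, lists and tests were chosen with earlier results of these data known.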

Additional observations from a re-analysis of the deposited data

Results flagged for a closer look

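The 0 to 6 hpa response after myoD RNAi differed from that of the 6-feeding controls for 686 of the 18230 transcripts tested in the joint fit of 48 libraries (3.76%; 567 more positive and 119 more negative after myoD RNAi; adjusted p under 0.05, edgeR). It differed from the response after fst RNAi for 324 (1.78%; 274 more positive and 50 more negative). Both were tested as the difference of the changes itself. The counts moved with single libraries: the total of 686 was 366 without 6-feeding control 6 hpa replicate 3, 441 without 0 hpa replicate 2 of those controls and 1040 without the contaminated fst RNAi 48 hpa replicate 1, and the total of 324 was 205 without myoD RNAi 0 hpa replicate 3, 201 without fst RNAi 0 hpa replicate 1 and 192 without fst RNAi 0 hpa replicate 2. For the ranges by direction, each library of the compared groups and the contaminated library were left out in turn, and no other. The 567 more positive than in the 6-feeding controls were 288 to 788, with the lowest without 6-feeding control 6 hpa replicate 3. The 119 more negative were 57 to 295. Their lowest number came without myoD RNAi 6 hpa replicate 1 and their highest without the contaminated library. Against fst RNAi the 274 more positive were 169 to 368, with the lowest without fst RNAi 0 hpa replicate 2, and the 50 more negative were 22 to 116, with the lowest without myoD RNAi 0 hpa replicate 3 and the highest without the contaminated library. With only the compared groups in the fit, 179 were more negative than in the 6-feeding controls, and 657 were more positive and 209 more negative than after fst RNAi. Experiment, number of feedings and RNAi differ together here and cannot be told apart.

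dd_Smed_v4_1636_0_1 had a response after myoD RNAi that exceeded the response after fst RNAi by 3.18 (SE 0.519, adjusted p = 0.000325) and that of the 6-feeding controls by 3.97 (SE 0.525, adjusted p = 9.36e-06, edgeR) on the log2 scale. Without each library of the compared groups, or the contaminated library, in turn these were 3 to 3.38 and 3.76 to 4.15. Within the 10-feeding experiment its difference from controls was 0.639 and was not called. This transcript and dd_Smed_v4_1162_0_1 were chosen for their change in the same myoD RNAi libraries that these tests use. That choice favours such differences, so their p-values are too small by an unknown amount. dd_Smed_v4_1162_0_1 fell more after myoD RNAi than in the 6-feeding controls, by a log2 difference of -0.975 (SE 0.226, adjusted p = 0.0058, edgeR), while its difference from fst RNAi was -0.736 (adjusted p = 0.0918). dd_Smed_v4_24180_0_1 was singled out after its values were seen, for its difference from controls in the same myoD RNAi libraries, which favours a difference here too. It had log2 differences of -1.55 from fst RNAi (adjusted p = 0.0112) and -1.64 from the 6-feeding controls (adjusted p = 0.00293, edgeR). It was called higher at 6 hpa after fst RNAi, in the 6-feeding controls and in the 10-feeding controls, and was not called after myoD RNAi. Its difference from fst RNAi no longer passed without 4 libraries in turn, with adjusted p values of 0.0585, 0.0539, 0.0604 and 0.0703 without myoD RNAi 0 hpa replicate 1, 0 hpa replicate 3 and 6 hpa replicate 3 and without fst RNAi 0 hpa replicate 2.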

How the results depend on the processing

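With RLE size factors, no filter on low counts, a stricter filter and DESeq2, the totals of calls stayed within 1.5 times of those reported for each of the 7 comparisons. A block for replicate number, on numbers not known to pair the samples, gave 2954 calls for myoD RNAi (1727 higher and 1227 lower) and 0 for the difference of responses, and moved no count of calls by over 1.5 times. A minimum fold of 1.5 left 151 calls for myoD RNAi, 137 higher and 14 lower, since it asks for a larger change. With only the compared groups fitted, the number lower after myoD RNAi was 1894, with 312 at 100 CPM or more, the total was 2847 after fst RNAi and 726 in the 6-feeding controls, the rises of that fit called after fst RNAi were 897 higher and 136 lower and its falls 514 lower, and 866 differed between myoD RNAi and fst RNAi; the medians of the rises and falls in 10-feeding controls were 0.333 and -0.283. With no filter the median of the rises there was 0.41. With lists of calls of at least 2-fold the medians of the rises were 1.12 in 10-feeding controls, 0.158 after fst RNAi and -0.162 in the 6-feeding controls. The last is reversed in sign but smaller than its SD over the 6 hpa libraries, 0.264. Of the 240 rises tested in the 6-feeding controls, 109 were positive and 131 negative, and the sign was not tested. The medians of the falls were -0.794, -0.556 and -0.574 in the same order. Each library of the compared groups was left out in turn, and so was the contaminated library where it entered the fit. The other libraries of each fit were kept. After myoD RNAi this gave 1963 to 2390 calls (1217 to 1428 higher and 746 to 962 lower). The difference of responses had 0 to 1. There were 2379 to 3155 calls in 10-feeding controls, 682 to 2329 after fst RNAi and 398 to 2132 in the 6-feeding controls. The differences from fst RNAi and from the 6-feeding controls had 192 to 484 and 366 to 1040. The medians of the rises were then 0.358 to 0.436 in 10-feeding controls, 0.217 to 0.289 after fst RNAi and 0.142 to 0.217 in the 6-feeding controls, and those of the falls -0.369 to -0.313, -0.247 to -0.18 and -0.183 to -0.13. The 4 named transcripts kept their direction and their call in each of these settings. For the fits without 1 library this was required by the rule that named them, so it is no support there. Depth and the 3 libraries a group limit what can be called, most of all among scarce transcripts. Under 1 CPM the unadjusted 95% interval of the difference of responses reached a median of 1.16 log2 units to either side.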
